A study of Mus musculus with 8 samples.

Results

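Transcripts of 8 effectors of the Hippo pathway were followed in retina of rd10 mice: Yap1, Wwtr1, Tead1, Amotl1, Amotl2, Ajuba, Lats1 and Lats2. They were found by gene symbol among 54532 rows of the deposited tables. Each symbol matched a single row, and all 8 were among the 17725 genes with enough counts to be tested. The rd10 strain carries a Pde6b mutation that causes loss of rods and then of cones, and both groups share it. One group is labelled sIVs, which the series title spells out as small intracellular vesicles (libraries sIVs 2 to 5), and the other PBS, taken here as the saline control (libraries PBS 1 to 4). The sources used here give no age, sex, dose, route, vesicle source, strain background or sampling time. The comparison asks how retinal transcript levels differed between the groups. Nothing in the labels ties each library to a separate animal. The p-values therefore measure spread among these libraries only, which may in part be technical.

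The Hippo pathway is a kinase cascade that restrains growth. The kinases LATS1 and LATS2 phosphorylate the co-activators YAP and TAZ (the product of Wwtr1) and so hold them in the cytoplasm. Unphosphorylated YAP and TAZ enter the nucleus and, through TEAD proteins, raise transcription of target genes. Angiomotin family proteins, encoded by Amotl1 and Amotl2 among others, bind YAP at junctions and the cytoskeleton, and the LIM protein Ajuba binds and restrains LATS kinases. LATS2 and AMOTL2 are themselves known products of YAP target genes. In the retina YAP is known chiefly from Müller glia, the radial support cells, and it is also present in vessels and pigment epithelium. The activity of YAP and TAZ is set largely by phosphorylation and location, which RNA levels do not show. The tissue was whole retina, so the values below cannot be assigned to glia, and fewer cells of a type cannot be told apart from less RNA per cell.

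Library totals ran from 14640235 to 16989737 counts. Rod, Müller glia and inner retinal neuron markers were detected in all libraries (13 of 13, 12 of 12 and 13 of 13 genes), as the tissue label requires, while 4 of 8 lens markers had no count in at least 1 library. Libraries sIVs 3 and 4 stood apart: their rod markers summed to 9900 and 9371 CPM, against 34332 to 42254 CPM in sIVs 2 and 5 and 37287 to 44335 CPM in PBS. CPM here are counts scaled to a common library size after trimmed mean of M values (TMM) normalisation. Results are therefore given with and without these 2 libraries.

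Near their start sites, 5 of the 7 effectors with a listed promoter window held GGAATG or its reverse complement CATTCC, the core of the sequence that TEAD proteins bind. The stretches that hold it are shown for Yap1, Wwtr1, Amotl2, Ajuba and Lats2, and any part of the motif in their levels was not tested. Sequences are from RefSeq on GRCm38.p6, are written 5′ to 3′ along the gene's own strand, and have the motif in capitals.
Yap1, chr9:8004705-8004764, minus strand: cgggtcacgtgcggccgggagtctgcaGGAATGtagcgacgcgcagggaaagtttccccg
Wwtr1, chr3:57576014-57576073, minus strand: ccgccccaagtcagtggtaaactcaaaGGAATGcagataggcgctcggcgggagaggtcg
Amotl2, chr9:102717712-102717771, plus strand: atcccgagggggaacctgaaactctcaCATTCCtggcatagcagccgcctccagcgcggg
Ajuba, chr14:54577815-54577874, minus strand: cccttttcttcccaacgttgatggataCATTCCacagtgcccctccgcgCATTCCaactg
Lats2, chr14:57746104-57746129, minus strand: tgacgcccgtGGAATGccaacaatgt

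The motif began 141 bases before the listed start of Yap1, 136 before the outer of 2 listed starts of Wwtr1, 65 before that of Amotl2 and 186 and 164 before that of Ajuba. In Lats2 it began 5 bases after a listed start. The windows of Amotl1 and Lats1 held neither form, and Tead1 has no listed window. Each window spans 250 bases before to 50 after a start, both strands were searched, and the 2 forms cannot overlap. Of 27025 genes with a window, 16.6% held the motif, so it is common by length alone, and a match is a description of letters, not a binding site. The AP-1 motif TGANTCA was in 0 of the 7 effectors' windows and in 8.97% of all genes. The listed starts of Amotl1, Amotl2 and Lats2 lie inside the deposited gene spans and that of Ajuba lies outside its span, so the distances hold for the listed RefSeq starts only.

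The deposited FPKM values (fragments scaled to gene length and library size) allow levels to be compared between genes, given the annotated lengths. In PBS the kinase gene Lats1 had the highest level, 14.5 ± 0.476 FPKM, followed by Amotl2 at 11.3 ± 0.533 FPKM (SD, n = 4 libraries each). Wwtr1 stood at 6.66 ± 1.13, Amotl1 at 5.74 ± 0.561, Lats2 at 4.23 ± 0.489, Tead1 at 3.37 ± 0.129, Ajuba at 3.21 ± 0.177 and Yap1 at 2.90 ± 0.187 FPKM. Neighbours whose PBS libraries overlapped were Wwtr1 with Amotl1, Tead1 with Ajuba, and Ajuba with Yap1. In FPKM the TAZ transcript was thus the higher of the co-activator pair in every library. The Wwtr1 to Yap1 ratio was between 1.84 and 2.81 in PBS and between 1.90 and 3.17 in sIVs. That order depends on the gene lengths used, 9257 bases for Yap1 and 4779 for Wwtr1. In CPM, which ignore length, Yap1 was the higher in PBS 3, PBS 4 and sIVs 4, and Wwtr1 in the other libraries.

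**Figure D1:**
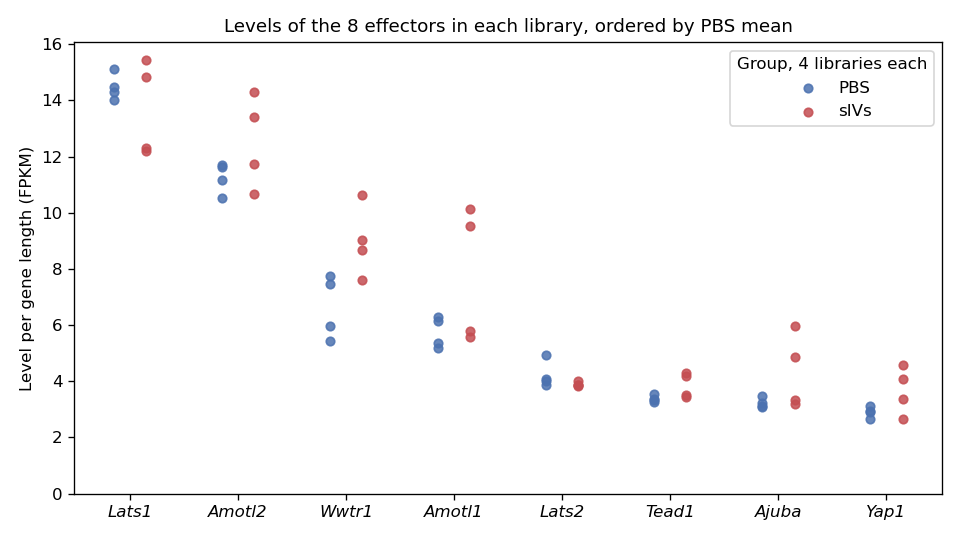
Level per gene length (FPKM, linear axis) of each effector, 1 point per library, with 4 PBS libraries in blue and 4 sIVs libraries in red, genes ordered by PBS mean. Lats1 and Amotl2 are the most abundant and Yap1 the least, and the 2 groups overlap for each gene.

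No effector passed the test of sIVs against PBS. The 8 genes split into 6 with a higher and 2 with a lower sIVs mean, log2 fold changes ran from -0.12 (Lats2) to 0.44 (Ajuba), and their median was 0.26, against -0.01 over all genes tested. The edgeR quasi-likelihood test with Benjamini-Hochberg adjustment called 0 of 17725 genes (percent called 0), and 0 of 8 effectors. At an unadjusted edgeR p under 0.05 it picked 1 effector, Wwtr1, and 15.2% of all genes. DESeq2 called 536 genes (3.02%, with 2.52% higher in sIVs), none of them an effector. For none of the 8 genes were the groups separate, with all sIVs libraries above or below all PBS libraries, as was the case for 4.42% of all genes upward and 3.36% downward.

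Both co-activators lay above all PBS libraries in sIVs 3, 4 and 5, but their highest library differed. Yap1 (ENSMUSG00000053110, chromosome 9, 7931999 to 8004596, minus strand, GRCm38) had 24.6, 26.8, 28.7 and 27.6 CPM across PBS 1 to 4, and sIVs 2 to 5 gave 24.6, 37.8, 42.4 and 31.2 CPM. Libraries sIVs 3, 4 and 5 lay above all PBS libraries, and sIVs 2 lay just below the lowest. The PBS mean was 26.9 ± 1.75 CPM and the sIVs mean 34 ± 7.79 CPM (SD over 4 libraries). The log2 fold change was 0.34 with an SE of 0.15, at an adjusted p of 0.332 by edgeR. Without sIVs 2 it passed at 0.46 (edgeR adjusted p = 0.0408), the 1 effector to do so, beside 7.39% of all genes in that fit and 4.83% in the higher direction. It was 0.21 without sIVs 4 alone. Without sIVs 3 and 4 it was 0.05 (edgeR adjusted p = 0.891), in a fit that called 0.0164% of all genes and no effector.

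Wwtr1 (ENSMUSG00000027803, chromosome 3, 57455649 to 57575910, minus strand), which encodes TAZ, had PBS values of 35.7, 37.2, 28.6 and 26.2 CPM, while sIVs 2 to 5 gave 36.2, 43.4, 41.7 and 51.0 CPM. Its highest library was sIVs 5, sIVs 3 and 4 also lay above all PBS libraries, and sIVs 2 lay within the PBS range. Its means were 31.9 ± 5.37 CPM for PBS and 43.1 ± 6.11 CPM for sIVs (SD over 4 libraries). The log2 fold change was 0.43 with an SE of 0.14, at an adjusted p of 0.216 by edgeR. Unlike that of Yap1, this value did not rest on sIVs 3 and 4: without them it was 0.45 (edgeR adjusted p = 0.274). Of the sIVs libraries then left, only sIVs 5 lay above the PBS range. With 1 library left out the fold change ran from 0.34 (without sIVs 5) to 0.51 (without PBS 2). The PBS libraries themselves were uneven, with PBS 1 and 2 high and PBS 3 and 4 low. The difference between the 2 genes was tested as the log2 Wwtr1 to Yap1 ratio, with means of 1.19 ± 0.32 in PBS and 1.31 ± 0.34 in sIVs (SD, n = 4 each, exact two-sided permutation p = 0.543, adjusted p = 0.814 over 3 paralog ratios). With 70 relabellings the smallest p this test can give is 0.0286. Without sIVs 3 and 4 the difference in this ratio was 0.40 in place of 0.13 (exact permutation p = 0.133, the smallest that 2 against 4 libraries allow). Leaving out 1 library at a time took it from 0.01 (without sIVs 5) to 0.26 (without sIVs 4).

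Tead1 (ENSMUSG00000055320, chromosome 7, 112679318 to 112906807, plus strand) encodes a DNA-binding partner of both co-activators. Its PBS libraries gave 45.6, 48.4, 44.3 and 45.5 CPM, and sIVs 2 to 5 gave 47.3, 57.0, 58.6 and 47.0 CPM. Only sIVs 3 and 4 lay above the PBS range, and sIVs 2 and 5 lay within it. The log2 fold change was 0.19 with an SE of 0.09, at an adjusted p of 0.343 by edgeR, and 0.03 without sIVs 3 and 4.

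**Figure D2:**
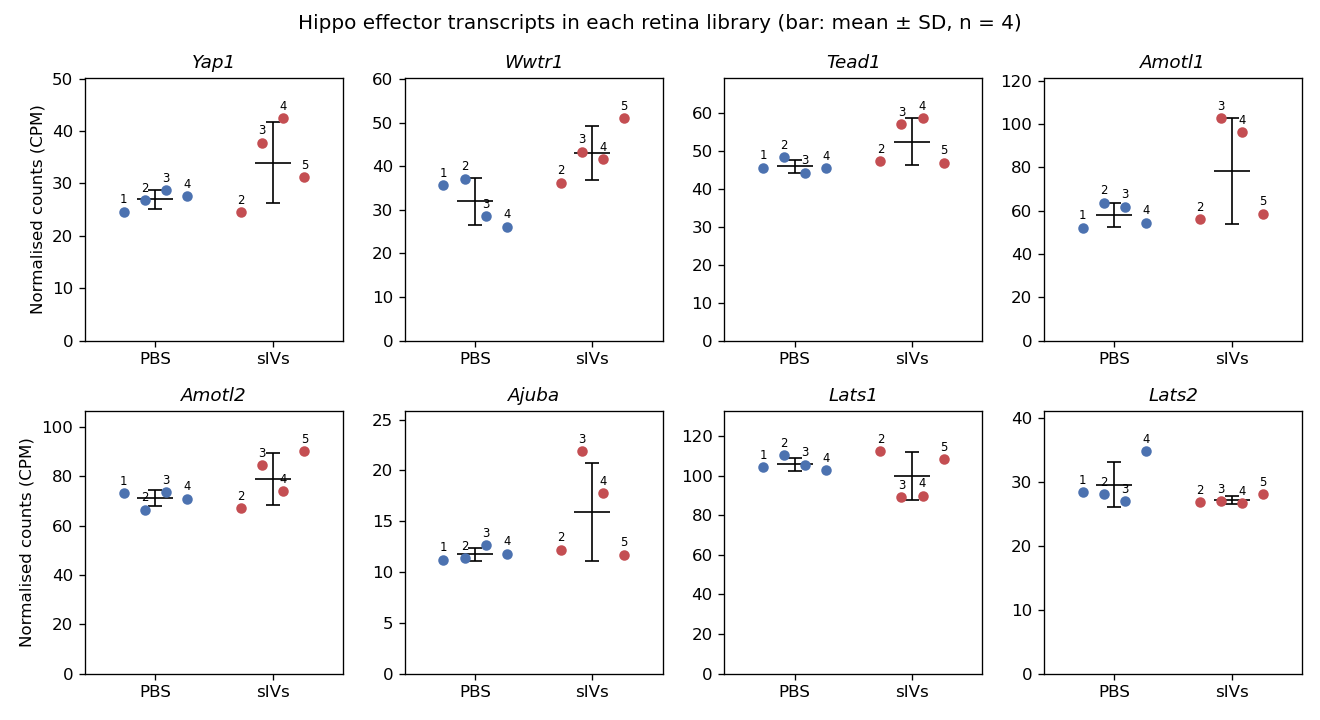
Normalised counts (CPM, linear axes from 0) of the 8 effectors in each library, 1 point per library labelled with its number, and the group mean ± SD as a bar (n = 4). Yap1, Tead1, Amotl1 and Ajuba are highest in sIVs 3 and 4, Wwtr1 and Amotl2 in sIVs 5, and Lats1 is lowest in sIVs 3 and 4.

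Among the cytoplasmic partners, Amotl1 and Ajuba had their high values in sIVs 3 and 4. Amotl1 (ENSMUSG00000013076, chromosome 9, 14541966 to 14645056, minus strand) had 52.1, 63.6, 61.8 and 54.4 CPM across PBS 1 to 4, and sIVs 2 to 5 gave 56.1, 103, 96.1 and 58.6 CPM. Libraries sIVs 2 and 5 were inside the PBS range, and sIVs 3 and 4 were 1.77 and 1.66 times the PBS mean. Its log2 fold change of 0.43 had an SE of 0.20 and an adjusted p of 0.329 by edgeR, and it was 0.28 without sIVs 3 and turned to -0.02 without sIVs 3 and 4 (edgeR adjusted p = 0.960). Ajuba (ENSMUSG00000022178, chromosome 14, 54567472 to 54577558, minus strand) had PBS values of 11.2, 11.4, 12.6 and 11.8 CPM, while sIVs 2 to 5 gave 12.2, 21.9, 17.8 and 11.7 CPM. Its values in sIVs 3 and 4 were 1.86 and 1.51 times the PBS mean, while sIVs 2 and 5 were again inside the PBS range. The fold change of Ajuba was 0.44 on the log2 scale, with an SE of 0.20 and an adjusted p of 0.329 by edgeR, and it was 0.24 without sIVs 3 and 0.02 without sIVs 3 and 4 (edgeR adjusted p = 0.965).

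Amotl2 (ENSMUSG00000032531, chromosome 9, 102716672 to 102733418, plus strand) gave 73.3, 66.4, 73.6 and 70.9 CPM in the PBS libraries, and 67.0, 84.6, 74.0 and 90.1 CPM across sIVs 2 to 5. As with Wwtr1, sIVs 5 was its highest library, although sIVs 4 exceeded the top PBS value by less than 1 CPM. Amotl2 had a log2 fold change of 0.15 with an SE of 0.10 and an adjusted p of 0.476 by edgeR. It was 0.14 without sIVs 3 and 4, and 0.08 without its highest library, sIVs 5. The log2 Amotl2 to Amotl1 ratio was 1.17, 0.74, 0.93 and 1.06 in PBS and 0.93, 0.40, 0.30 and 1.3 in sIVs 2 to 5. It was lowest in sIVs 3 and 4 and highest in sIVs 5, so the sIVs libraries lay on both sides of PBS (difference -0.24, exact two-sided permutation p = 0.400, adjusted p = 0.814). Without sIVs 3 and 4 the difference turned to 0.14, and it ran from -0.43 (without sIVs 5) to -0.10 (without sIVs 4) when 1 library was left out.

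The 2 LATS kinase genes were the only effectors with a lower sIVs mean, by amounts smaller than the spread between libraries. Lats1 (ENSMUSG00000040021, chromosome 10, 7681214 to 7716460, plus strand) had 104, 111, 106 and 103 CPM across PBS 1 to 4, and sIVs 2 to 5 gave 112, 89.3, 90.0 and 109 CPM. Libraries sIVs 3 and 4 lay below all PBS libraries and sIVs 2 above all of them. The log2 fold change was -0.08 with an SE of 0.09, at an adjusted p of 0.695 by edgeR. It ran from -0.14 (without sIVs 2) to -0.03 (without sIVs 3) when 1 library was left out, and turned to 0.06 without sIVs 3 and 4. Lats2 (ENSMUSG00000021959, chromosome 14, 57689662 to 57758388, minus strand), itself a YAP target, had PBS values of 28.4, 28.1, 27 and 34.8 CPM, while sIVs 2 to 5 gave 26.8, 27, 26.7 and 28 CPM. The sIVs libraries were closely grouped, with an SD of 0.611 CPM, and PBS 4 stood above the rest. Lats2 had a log2 fold change of -0.12 with an SE of 0.09 and an adjusted p of 0.556 by edgeR, and without PBS 4 it was -0.04. The log2 Lats2 to Lats1 ratio averaged -1.78 ± 0.19 in PBS and -1.81 ± 0.16 in sIVs (SD, n = 4 each, exact two-sided permutation p = 0.886, adjusted p = 0.886). The difference of -0.03 turned positive without PBS 4 (0.07) or sIVs 2 (0.04).

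**Figure D3:**
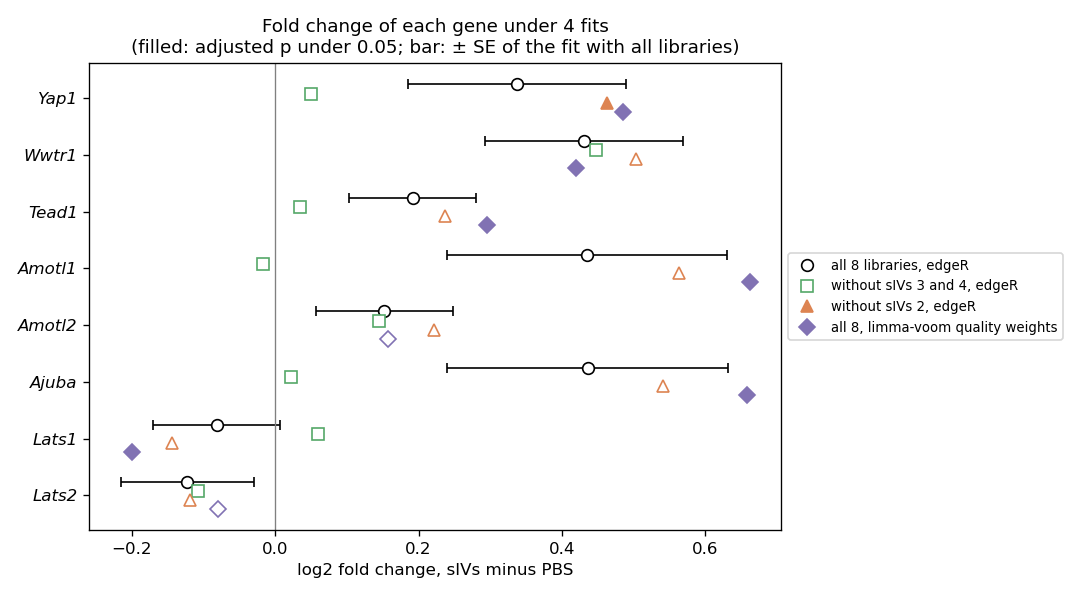
The log2 fold change of each effector (x axis, sIVs minus PBS) under 4 fits, with filled symbols where the adjusted p is under 0.05 and a bar of ± 1 SE for the edgeR fit of all 8 libraries. Without sIVs 3 and 4 (squares), Yap1, Tead1, Amotl1 and Ajuba lie between -0.02 and 0.05, while Wwtr1 and Amotl2 stay at 0.45 and 0.14.

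The number of effectors that passed depended on library weights. In limma-voom with sample quality weights, 6 of 8 passed: Yap1, Wwtr1, Tead1, Amotl1 and Ajuba higher and Lats1 lower, at adjusted p from 0.00511 to 0.0351. That fit called 28.1% of all genes and gave its lowest weights, 0.258 and 0.245, to sIVs 2 and 5, against 0.906 to 2.71 for the other libraries. Without weights limma-voom called 0 genes.

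The other genes of the pathway, 37 in 6 lists, lay on both sides of PBS, so their median was near 0. Of 36 tested, edgeR called 0 after adjustment, and the median log2 fold change was 0.03, within a range of -0.42 to 0.97. All sIVs libraries lay above all PBS libraries for 2 of them and below for 3, against 4.42% and 3.36% of all genes. At an unadjusted edgeR p under 0.05, 3 were higher (Map4k4, Wwc1 and Limd1) and 3 lower (Fat4, Strn and Btrc), against 9.61% and 5.63% of all genes. Within the kinase cassette, which activates LATS, Map4k4 had the smallest p. It encodes a kinase upstream of LATS, with a PBS mean of 141 ± 8.65 CPM and an sIVs mean of 169.8 ± 20.6 CPM (SD over 4 libraries, edgeR adjusted p = 0.249). Its log2 fold change was 0.27, it passed without sIVs 2 at 0.36 (edgeR adjusted p = 0.0235), and it was 0.17 without sIVs 3 and 4. Stk3 and Stk4, the MST kinases, had log2 fold changes of 0.08 and 0.01, named after their values were seen. Among upstream regulators, the atypical cadherin gene Fat4 was below every PBS library in all 4 sIVs libraries, at 49.9, 58.0, 61.3 and 43.9 CPM against a PBS minimum of 62.3 CPM (adjusted p of 0.210 by edgeR). Its log2 fold change was -0.33 with an SE of 0.10, and -0.52 without sIVs 3 and 4 (edgeR adjusted p = 0.0717).

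The remaining lists each gave 1 gene by smallest p. Limd1, a LIM adaptor related to Ajuba, had a log2 fold change of 0.23, with an SE of 0.10 and an adjusted p of 0.308 by edgeR, and of 0.12 without sIVs 3 and 4. Strn, a subunit of the STRIPAK phosphatase complex that opposes the MST kinases, and Btrc, which encodes a ubiquitin ligase subunit that targets phosphorylated YAP for degradation, were below PBS in 4 of 4 sIVs libraries. Strn had a log2 fold change of -0.18 (SE 0.06) and Btrc of -0.21 (SE 0.07), at adjusted p of 0.239 and 0.241 by edgeR. Sav1, a scaffold of the MST kinases, and Strn4 were above PBS in 4 of 4 sIVs libraries at log2 fold changes of 0.17 and 0.05, named after their values were seen. Of the other nuclear partners, Tead4 was scarce, with a PBS mean of 0.469 ± 0.231 CPM and an sIVs mean of 0.918 ± 0.518 CPM (SD over 4 libraries). Its log2 fold change was 0.97 (edgeR adjusted p = 0.370), and 0.27 without sIVs 3 and 4. Vgll2, which encodes a TEAD cofactor, had 0 counts in every library, which allows up to 0.213 CPM in the shallowest one (3 counts, counting error only).

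Known YAP and TAZ target genes had a higher median fold change than the effectors, and high values again lay mostly in sIVs 3 and 4. Of 21 listed genes other than Amotl2 and Lats2, 20 were tested, 18 had a higher and 2 a lower sIVs mean, and the median log2 fold change was 0.35. It was -0.01 without sIVs 3 and 4. The edgeR test called 0 of them after adjustment, and 5 of 20 were higher at an unadjusted edgeR p under 0.05, against 9.61% of all genes. The list's median deviation from the PBS mean was 0.05, 0.67, 0.44 and -0.03 in sIVs 2 to 5, and that of the 8 effectors 0.00, 0.38, 0.37 and 0.03. The 2 lower genes, named after their values were seen, were Asap1 at -0.02 and Nt5e at -0.83. Nt5e encodes the ectonucleotidase CD73, which mouse rods also express, and it had 136, 27.5, 28.6 and 103 CPM across sIVs 2 to 5.

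F3, Myof and Tgfb2 were the 3 of 20 targets whose groups were separate, all upward, against 4.42% of all genes upward. F3, which encodes tissue factor, the starter of coagulation, gave 13.8, 10.7, 11.3 and 10.9 CPM in the PBS libraries, and 19.9, 20.3, 17.7 and 17.8 CPM across sIVs 2 to 5. It was evenly high across the 4 sIVs libraries. For F3 the log2 fold change of 0.70 had an SE of 0.11 and an adjusted p of 0.130 by edgeR, and it was 0.69 without sIVs 3 and 4. Myof, which encodes the membrane repair protein myoferlin, had PBS values of 32.6, 36.0, 28.1 and 22.2 CPM, while sIVs 2 to 5 gave 40.7, 135, 123 and 62.2 CPM. Libraries sIVs 3 and 4 were the highest and sIVs 2 the lowest of its group. The fold change of Myof was 1.6 on the log2 scale, with an SE of 0.35 and an adjusted p of 0.161 by edgeR, and it was 0.79 without sIVs 3 and 4. Tgfb2, a TGF-beta ligand gene, had a log2 fold change of 0.52, with an SE of 0.15 and an adjusted p of 0.193 by edgeR, and of 0.20 without them. Its groups were barely separate: sIVs 2 was at 1.04 times the PBS mean and PBS 3 at 1.0386. Libraries sIVs 3, 4 and 5 were at 1.79, 1.63 and 1.27 times that mean. DESeq2 called F3 and Myof (adjusted p = 9.25e-05 and 0.000384), and also Axl (adjusted p = 0.0113), beside 2.52% of all genes in the higher direction. Without sIVs 2, edgeR called F3, Myof, Tgfb2 and Axl at adjusted p from 0.00799 to 0.0164, beside 4.83% of all genes in the higher direction.

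The remaining named targets overlapped PBS. Axl, a receptor tyrosine kinase gene, had 42.2, 94.1, 99.9 and 65.1 CPM across sIVs 2 to 5 against a PBS maximum of 44.5 CPM. For Axl the log2 fold change of 0.98 had an SE of 0.25 and an adjusted p of 0.173 by edgeR, and it was 0.49 without sIVs 3 and 4. Thbs1, which encodes the matrix protein thrombospondin 1, had a log2 fold change of 1.24, with an SE of 0.51 and an adjusted p of 0.299 by edgeR, that turned to -0.05 without sIVs 3 and 4. Cyr61 and Ctgf, the matricellular genes most often read as YAP activity (now Ccn1 and Ccn2), differed by 0.51 (SE 0.23) and 0.18 (SE 0.16) on the log2 scale, at adjusted p of 0.338 and 0.638 by edgeR. Cyr61 was at 0.32 without sIVs 3 and 4. Ctgf gave 38.2, 47.9, 47.6 and 26.6 CPM across sIVs 2 to 5 against 34.2 to 37.0 CPM among PBS libraries, so sIVs libraries lay on both sides, and its fold change turned to -0.13 without sIVs 3 and 4. Nuak2, a stress kinase gene, was at 0.31 and Igfbp3, which encodes a growth factor binding protein, at 0.60 (adjusted p of 0.377 and 0.383 by edgeR), and 0.01 and 0.65 without sIVs 3 and 4. Ankrd1 had 0 counts in all PBS libraries and in sIVs 2, and 4, 4 and 1 counts in sIVs 3 to 5, too few to be tested.

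**Figure D4:**
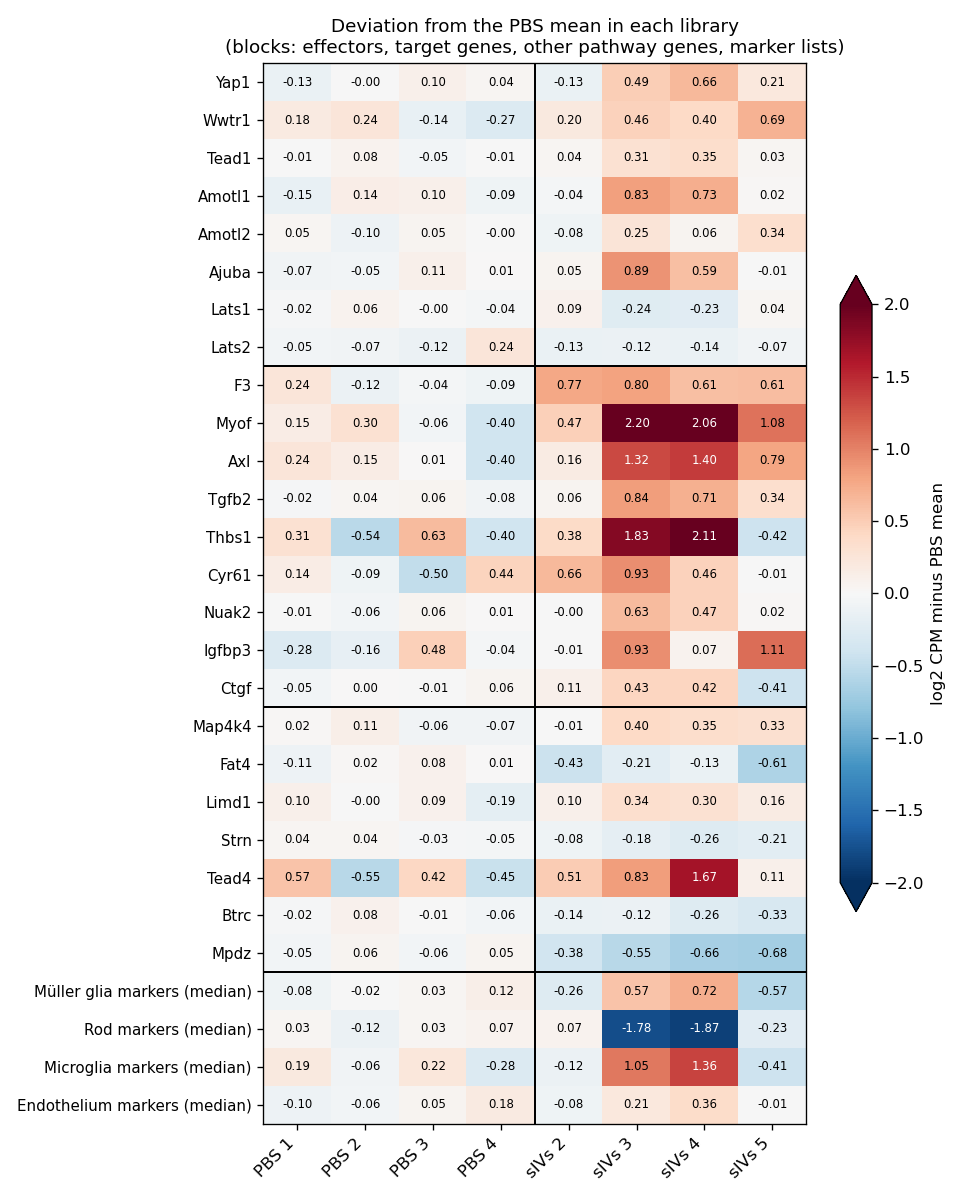
Difference of log2 CPM from the PBS mean in each library (columns) for the effectors, named target genes and other named pathway genes (rows), with the median of 4 marker lists at the bottom, where the colour scale ends at -2 and 2. Yap1, Tead1, Amotl1, Ajuba and most targets share high values in sIVs 3 and 4, the libraries with rod marker medians of -1.78 and -1.87. Wwtr1 is also above all PBS libraries there (0.46 and 0.40) but peaks in sIVs 5 (0.69).

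Several cell type marker lists moved in sIVs 3 and 4, but not all. Inner retinal neuron markers summed to 3016 and 3081 CPM there, inside the PBS range of 2676 to 3161 CPM. The pigment epithelium sums there, 69.2 and 124 CPM, were also inside their PBS range. Müller glia markers had medians of -0.26, 0.57, 0.72 and -0.57 (log2 against the PBS mean) in sIVs 2 to 5, and their summed level was 3939 to 7224 CPM in sIVs and 5545 to 6985 CPM in PBS, with none of 12 at 0. The sum in sIVs 3, 6674 CPM, lay inside the PBS range. The list was mixed: Glul, which encodes glutamine synthetase, was at -1.20 and -1.06 and Abca8a at -0.64 and -0.55 in sIVs 3 and 4, and for both all 4 sIVs values lay under the PBS range, while for Sox9 and Vim all 4 lay above it (genes named after their values were seen). Thus 2 of 12 Müller markers were separate downward and 2 upward, against 3.36% and 4.42% of all genes. Yap1, Tead1, Amotl1 and Ajuba peaked in the 2 libraries where the Müller median, but not each marker, was high. Wwtr1 and Amotl2 also lay above all PBS libraries there but were highest in sIVs 5, where that median was lowest. Endothelial markers summed to 422, 738, 750 and 393 CPM in sIVs 2 to 5 and to 435 to 488 CPM in PBS. Microglia and macrophage markers summed to 195, 412, 495 and 152 CPM in sIVs and to 159 to 249 CPM in PBS. Astrocyte markers summed to 277, 738, 799 and 318 CPM in sIVs 2 to 5 and to 168 to 285 CPM in PBS. Their median deviation from the PBS mean was 0.16, 0.67, 0.23 and 0.01 (log2) in sIVs 2 to 5. Of the 6 astrocyte genes, 2 had a negative log2 fold change. Pericyte markers summed to 661, 385, 379 and 580 CPM in sIVs 2 to 5 against 643 to 747 CPM in PBS. The pericyte median went the other way from its sum, at 0.62 and 0.48 in sIVs 3 and 4, since Vtn, named after its values were seen, held most of the PBS sum and was at -1.50 and -1.56 there. Pigment epithelium markers summed to 36.2 to 124 CPM in sIVs and 61.5 to 231 CPM in PBS. No gene of these 5 lists was at 0 in any library, and the part of these cell types and of the low rod marker levels of sIVs 3 and 4 in the effector values was not tested.

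Genes with patterns nearest to the effectors of widest range were found by the root mean square (RMS) difference in log2 CPM, after centring on the PBS mean, over the 8 libraries and 14039 protein-coding genes. Amotl1, with a range of 0.98 on the log2 scale, was nearest to St6gal1, Mcm2 and Hspg2 (RMS differences 0.06, 0.07 and 0.07). These encode a sialyltransferase, a DNA replication helicase subunit and the basement membrane protein perlecan. Wwtr1, with a range of 0.96, had Coq4 and Etv6 among its nearest genes (RMS differences 0.07 and 0.08), which encode a ubiquinone synthesis protein and an ETS family repressor. Etv6 gave 35.5, 39.4, 33.6 and 30.5 CPM in the PBS libraries, and 38.6, 46.4, 42.3 and 54.2 CPM across sIVs 2 to 5. It shared the high pair PBS 1 and 2 and the peak in sIVs 5 with Wwtr1, a likeness by which it was chosen.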

How the data were processed

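RNA of rd10 retina was sequenced from poly(A)-selected, strand-marked, paired-end libraries, per the labels' protocols. The authors deposited raw whole-number counts and FPKM values per gene, on mm10 per the submitters' processing notes. For the aligner, counting program and strand setting, the sources used here name nothing. All deposited FPKM values checked equalled counts per gene length and library total times a library constant of 0.930 to 1.03 (tolerance 0.1%). Group and number came from sample titles, so sIVs libraries are 2 to 5. Counts were filtered with filterByExpr, scaled by TMM and tested with edgeR 4.0.16 (glmQLFit and glmQLFTest, group as the only term, Benjamini-Hochberg over 17725 genes, threshold 0.05) in R 4.3.3. SEs were derived from the F statistic. The test was tried on simulated data first. The biological coefficient of variation was 8.83% among PBS and 22.3% among sIVs libraries. The counts behind each effector ran from 166 to 1821 per library. All library pairs differed beyond sampling noise (lowest chi-square per gene 3.65, between PBS 1 and sIVs 2). Library sIVs 2 was at 3.65 to 12.6 from the PBS libraries but at 61.5 and 74.5 from sIVs 3 and 4. For sIVs 5 these values were 15.0 to 25.5, and 57.6 and 69.3.

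Members and gene lists were chosen with earlier results of these data known. Named genes were the 8 effectors, the gene of smallest p in each pathway list, and 8 target genes of smallest p plus Cyr61, Ctgf and Ankrd1. The 3 genes nearest in pattern to each of the 2 effectors of widest range were also named, of which 1 is not reported here. Alternatives were DESeq2 1.42.0, limma 3.58.1 (voom with and without weights, log2(FPKM + 0.1), log2(FPKM + 1)), other scalings and filters, each library left out, and replicate blocks. Leaving out sIVs 3 and 4 was chosen after seeing the data. All member coordinates matched GENCODE M21.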

Additional observations from a re-analysis of the deposited data

How the results depend on the processing

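The count of genes past the threshold was 0 with all libraries in edgeR. It was 536 with DESeq2 (447 higher, 89 lower), 4973 with limma-voom quality weights (2484 higher, 2489 lower), 152 with no low-count filter, 3 without sIVs 3 and 4, and from 0 to 1331 when each library was left out, the highest without sIVs 2. Effectors past it numbered 0, but 6 with quality weights and from 0 to 1 when each library was left out (Yap1, without sIVs 2). The causes were not tested. Without sIVs 3 and 4 the log2 fold changes of Amotl1, Lats1, Thbs1 and Ctgf turned to -0.017, 0.059, -0.050 and -0.13, and the Amotl2 to Amotl1 ratio difference to 0.14. The Lats2 to Lats1 ratio difference was -0.03 and ran from -0.077 to 0.067 when each library was left out, turning positive without PBS 4 (0.067) or sIVs 2 (0.037), and a design of 3 against 4 libraries cannot give p below 0.0571. Among the alternative values of named genes, 441 of 479 kept direction and side of the threshold, 34 newly passed and 4 turned. Scaling by library totals moved the median of all genes by 0.08. With a replicate block by title number or by biosample number edgeR called 0 genes and 0 effectors. For the ratios only the block by biosample number was run, which by construction leaves the differences at 0.13, -0.03 and -0.24 (exact sign-flip p = 0.750, 1.0 and 0.375, smallest possible 0.125). Numbers were not taken to pair libraries, since the labels state no pairing. Deviations of same-numbered libraries had correlations from -0.07 to 0.10, which over at most 4 pairs cannot exclude a pairing. Depth (3 counts stand for up to 0.213 CPM) limits statements on Ankrd1, Vgll2 and Tead4.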

Other observations

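Scaffolds of the apical junction, where angiomotin proteins and YAP can be held, included a gene ranked 7 by edgeR p among all genes tested. Its adjusted p was tied with the lowest. Mpdz, a multi-PDZ scaffold gene, gave 160, 173, 160 and 173 CPM in the PBS libraries and 128, 113, 105 and 104 CPM across sIVs 2 to 5, so every sIVs library lay below every PBS library. Its log2 fold change was -0.56 with an SE of 0.08, at an adjusted p of 0.0868 by edgeR, and -0.52 without sIVs 3 and 4. DESeq2 called it (adjusted p = 6.17e-06), as did edgeR without sIVs 2 (adjusted p = 0.00561). Those 2 fits called 3.02% and 7.39% of all genes. Crb1, a polarity gene named after its values were seen, was the other scaffold below PBS in 4 of 4 sIVs libraries, at a log2 fold change of -0.64 with an SE of 0.17 and an adjusted p of 0.177 by edgeR. It had 371, 209.9, 222 and 228 CPM across sIVs 2 to 5 against a PBS minimum of 383 CPM. Thus 2 of 10 scaffolds were separate downward and 0 upward, against 3.36% and 4.42% of all genes. The list of 10 had a median of -0.06, and of 0.01 without sIVs 3 and 4. Patj, a paralog of Mpdz also named after its values were seen, was at -0.04 (edgeR adjusted p = 0.843).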
